A study of Mus musculus with 14 samples.

Results

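The 35 genes described here are widely used markers of macrophages and monocytes, listed by symbol. The rule for reading them uses no measured value, although the list was drawn up with earlier results of these data known. Each was read from the probe sets annotated to that symbol and to no other, and all 35 were on the array, with 52 probe sets. Of these, 33 had a probe set above the detection cut used here (a log2 value over 5.75, the median of the whole table, on at least 3 arrays) and stand among the 12260 genes tested. Timd4 and Itgax did not meet that cut. The list holds 7 markers of the resident type (Mrc1, Cd163, Lyve1, Timd4, Folr2, Cbr2 and F13a1), which are set against the remaining 28.

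Hearts came from male C57BL/6 mice that lacked Hspb8, the gene of the heat shock protein Hsp22 (also called H11 kinase; knockout, KO), or carried it (wild type, WT), and left ventricular RNA was put on 14 Affymetrix mouse genome arrays. The groups were KO after 3 days of pressure overload by aortic banding surgery (TAC KO, 4 arrays), WT after the same surgery (TAC WT, 4 arrays), KO without overload (basal KO, 3 arrays) and WT without overload (basal WT, 3 arrays). No group is labelled as sham-operated, no source used here gives the age of the mice or the part of Hspb8 that was removed, and nothing in the labels says that arrays of a group came from separate animals, so p-values measure the spread between these samples. Basal arrays and TAC arrays carry different run labels, so overload and array run cannot be told apart. All TAC arrays share 1 run label, and basal KO 3 carries another day label than the other basal arrays. In RNA of whole ventricle, fewer cells of a type and less RNA per cell cannot be told apart.

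Macrophages are the main phagocytes of the heart. Resident-type macrophages, many of which are seeded before birth and renew locally, carry scavenger and endocytic receptors such as Mrc1 (the mannose receptor CD206), Cd163 (the haemoglobin-haptoglobin scavenger receptor), Lyve1 (a hyaluronan receptor) and Folr2 (a folate receptor). After injury or overload, blood monocytes enter the tissue, drawn by chemokines such as Ccl2, and mature into macrophages that are rich in Fc receptors, lysosomal proteases and lectins. Most genes on the list are read in both kinds of cell and some in other leukocytes, so a marker level in whole ventricle is no count of cells.

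The myeloid transcription factor PU.1 binds the core letters GAGGAA, and AP-1 factors bind TGANTCA. Promoter windows from 250 bases before to 50 after the transcription start were read from RefSeq (GRCm38.p6) for 27 of the 35 genes, and none was read for Msr1, Arg1, Alox5ap, Cd14, Adgre1, Lyve1, Csf1r and Tyrobp. GAGGAA was found on either strand in at least 1 window of 16 of the 27 genes (59.3%), against 31.25% of 27025 genes of the table. TGANTCA was found in 7 of 27 (25.9%), against 8.97% of all genes, and the motifs overlapped each other in no member window. Among resident-type genes 3 of 6 held GAGGAA and 1 of 6 held TGANTCA, against 13 and 6 of 21 other members. Some genes have several windows, and those of Ptprc, Fcgr3, Clec7a and Apoe overlap. A match of letters is a description and not a bound site.

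The windows of Mrc1 (chr2:14229164-14229463 on the forward strand), Cd163 (chr6:124304401-124304700 on the forward strand) and Cd68 (chr11:69666121-69666420 on the reverse strand) are printed 5′ to 3′ because these genes stand for the patterns described here. Among TAC WT arrays the third was the highest for Mrc1 and the lowest for Cd163, both resident-type genes, and Cd68 is a lineage gene with both motifs. Capitals mark GAGGAA or its complement and TGANTCA. Mrc1 holds 3 GAGGAA matches, all on the opposite strand, Cd163 holds neither motif, and Cd68 holds 2 of each.
Mrc1: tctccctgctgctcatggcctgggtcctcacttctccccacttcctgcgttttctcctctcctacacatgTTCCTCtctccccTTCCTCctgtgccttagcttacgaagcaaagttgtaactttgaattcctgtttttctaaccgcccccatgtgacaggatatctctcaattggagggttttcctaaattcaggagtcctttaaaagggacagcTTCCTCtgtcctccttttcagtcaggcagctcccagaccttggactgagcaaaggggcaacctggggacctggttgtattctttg
Cd163: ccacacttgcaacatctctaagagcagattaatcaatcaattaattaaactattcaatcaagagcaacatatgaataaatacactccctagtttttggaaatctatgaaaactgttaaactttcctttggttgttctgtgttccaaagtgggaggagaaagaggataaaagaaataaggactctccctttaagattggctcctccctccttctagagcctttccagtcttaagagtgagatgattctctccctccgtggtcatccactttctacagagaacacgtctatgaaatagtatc
Cd68: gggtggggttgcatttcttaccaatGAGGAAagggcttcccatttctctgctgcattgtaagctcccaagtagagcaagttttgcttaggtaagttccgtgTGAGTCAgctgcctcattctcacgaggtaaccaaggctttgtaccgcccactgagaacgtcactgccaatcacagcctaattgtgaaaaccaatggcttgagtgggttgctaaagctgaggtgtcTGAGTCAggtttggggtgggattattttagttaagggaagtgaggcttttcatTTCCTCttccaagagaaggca

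Hspb8, the targeted gene, matched the genotype labels on every array by 2 of its 3 probe sets. One read from 4.27 to 5.13 on KO arrays, against 11.09 to 12.29 on WT arrays, and another from 5.10 to 5.92, against 10.26 to 11.64. The third overlapped between genotypes, at 8.20 to 8.84 on KO arrays, against 8.79 to 10.01 on WT arrays. Array medians lay between 5.70 and 5.80. Arrays of a group correlated at 0.970 to 0.991 in TAC KO, 0.918 to 0.986 in TAC WT, 0.986 to 0.988 in basal KO and 0.983 to 0.987 in basal WT. The array TAC WT 3 stood apart: its mean correlation with its group was 0.946, and it held the highest value of the 4 TAC WT arrays for 29 of the 33 members. TAC WT 1 followed with a mean correlation of 0.954, and was the lowest TAC WT array for 21 of the 33 members. A member's WT value that moved by over 1.5 times on the log2 scale without TAC WT 3 is given without TAC WT 3 too. The same holds for a member's call that TAC WT 3 decided. WT differences of genes outside the list are given with all arrays only. The cardiac muscle genes Myh6 and Actc1 read from 14.11 to 14.81 on all arrays. The mean of 8 cardiac muscle markers, as a difference from basal WT, was lowest on TAC WT 3 (log2 -0.28), where Tnni3 read 13.47 and Ryr2 12.05.

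After 3 days of overload most of the list was higher. In KO hearts, 25 of 33 members rose and none fell, beside 22.7% of all genes that rose and 21.8% that fell in the same comparison (limma, Benjamini-Hochberg adjusted p under 0.05 over 12260 genes). In WT hearts, 23 of 33 rose and 1, Apoe, fell, beside 26.9% of all genes that rose and 23.8% that fell. The median difference of members was log2 1.36 in KO hearts and 1.34 in WT hearts, where that of all genes was -0.02 and 0.02. Itgam, Fcgr1, Chil3 and Arg1 passed the detection cut only through TAC arrays, so a higher value there was part of how they were kept. Of the 29 members detected on at least 3 basal arrays, 21 rose in KO hearts and 20 rose in WT hearts, against 21.3% and 26.0% of the 11752 genes detected in that way.

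Without the array basal WT 2, 15 of 33 members rose in WT hearts, beside 21.1% of all genes. Without TAC WT 3, 22 did, beside 24.0% of all genes, and the median member difference in WT hearts was 0.93 in place of 1.34. TAC WT 3 also entered the spread by which the KO comparison was judged, and without it 29 members rose in KO hearts, beside 25.7% of all genes, with Adgre1, Csf1r, Aif1 and Gpnmb among them at unchanged differences. That array was singled out by the members' own values, so leaving it out had to narrow their spread. The counts without it are therefore a description, and the shares of all genes are no like reference. In KO hearts 27 of 33 members had all TAC arrays above all basal arrays and none had them all below, where 27.7% and 26.7% of all genes did. In WT hearts these counts were 21 and 1 of 33, where 25.5% and 24.3% of all genes did.

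**Figure D1:**
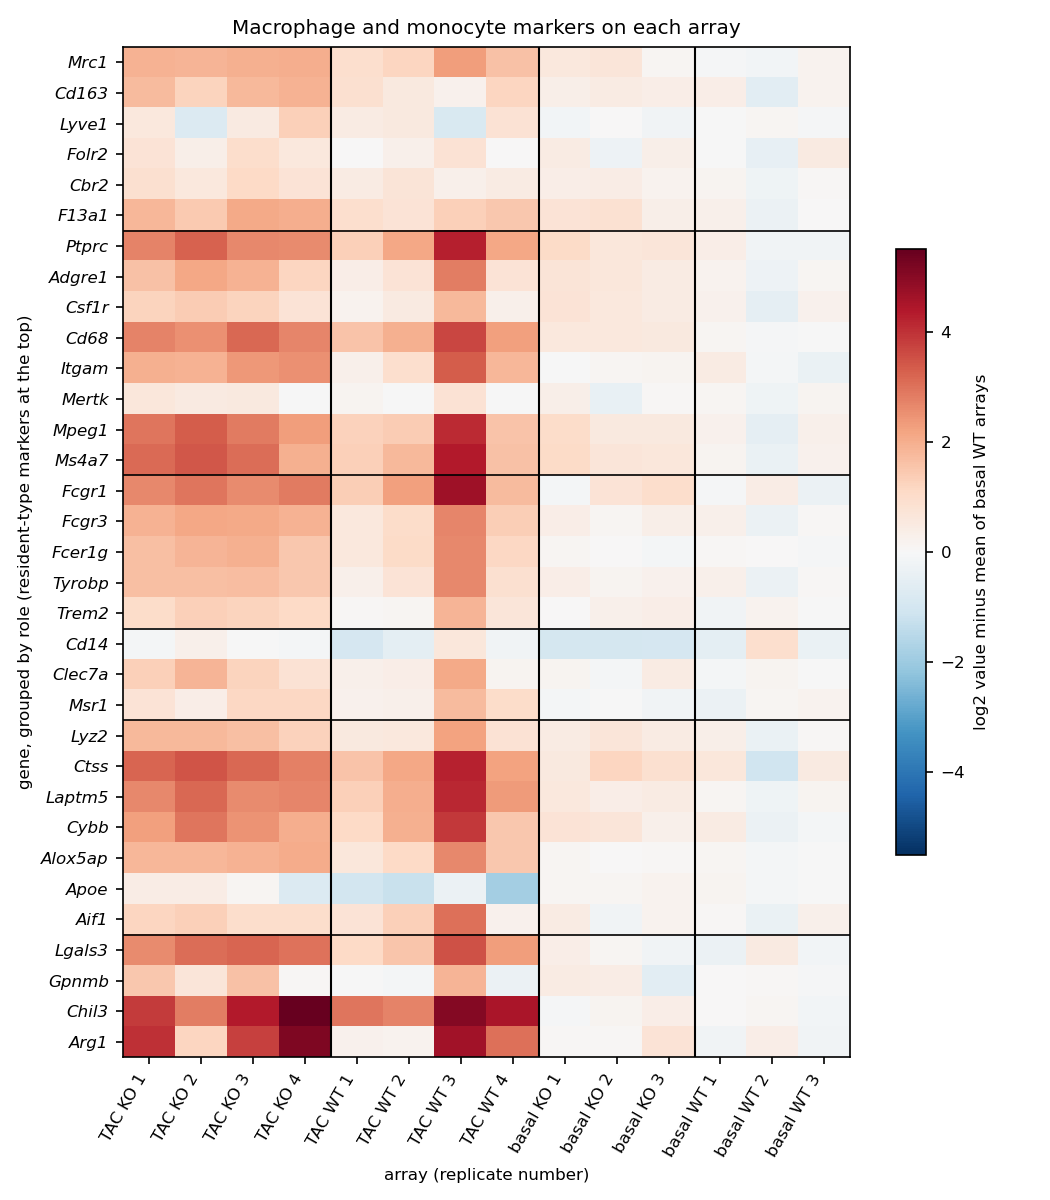
Log2 value of each of the 33 members (rows, by role) on each of the 14 arrays (columns), less the mean of the 3 basal WT arrays, as colour from blue (lower) through white to red (higher). The TAC columns are red in most rows, the column TAC WT 3 is the darkest TAC WT column in most rows outside the resident-type rows at the top, and Lyve1 is blue in TAC KO 2 and TAC WT 3.

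**Figure D2:**
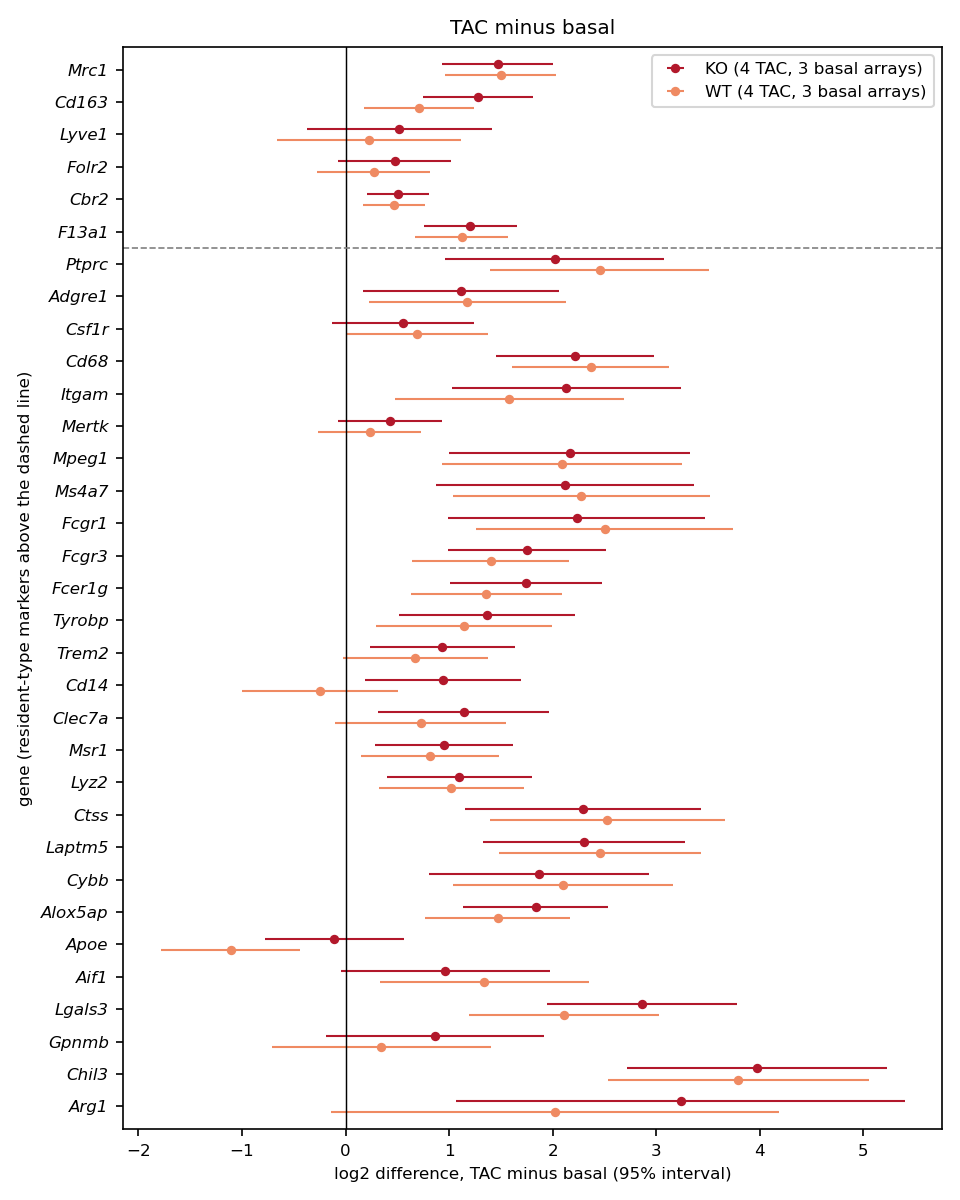
Log2 difference of TAC minus basal for each member with its 95% interval from limma, in KO hearts and in WT hearts (4 TAC and 3 basal arrays each). Most points lie right of 0 in both genotypes, with Chil3 the farthest, while Apoe in both genotypes and Cd14 in WT hearts lie left of it.

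The resident-type markers rose in part, with lower medians than the other members. In both genotypes 4 of 6 measured members rose (Mrc1, Cd163, Cbr2 and F13a1) and none fell, with a median log2 difference of 0.86 in KO hearts and 0.59 in WT hearts. The other members had medians of 1.75 in KO hearts and 1.40 in WT hearts, with 21 of 27 and 19 of 27 higher. The 4 members kept only through TAC arrays are all among these others. Of the 23 others detected on at least 3 basal arrays, 17 rose in KO hearts and 16 in WT hearts. Their medians were 1.36 in KO hearts and 1.34 in WT hearts, while the resident-type values stayed the same. Of all 12260 genes, 22.7% rose in KO hearts and 26.9% in WT hearts. The counts of each set, and of each role group below, stand beside these shares. TAC WT 3 was the highest TAC WT array for all 27 other members and for 2 of the 6 resident-type members. Without that array the WT medians of the sets lay closer together, at log2 0.725 for resident-type members and 0.98 for the others. No test was made of resident-type against other markers.

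Mrc1, the mannose receptor that clears glycoproteins and marks tissue macrophages, read 10.37, 10.34, 10.43 and 10.46 in TAC KO hearts, against 9.04, 9.16 and 8.59 in basal KO hearts. In TAC WT hearts it read 9.39, 9.65, 10.76 and 10.09, against 8.43, 8.34 and 8.65 in basal WT hearts. Every TAC array lay above every basal array of its genotype, and the differences were 2.77-fold in KO hearts (log2 1.47, SE 0.25, adjusted p = 0.000896) and 2.83-fold in WT hearts (log2 1.50, SE 0.25, adjusted p = 0.000588). F13a1, which encodes the coagulation factor XIII A chain, read 11.23, 10.88, 11.49 and 11.44 in TAC KO hearts, against 10.16, 10.25 and 9.75 in basal KO hearts. The TAC WT arrays read 10.33, 10.19, 10.75 and 10.91, against 9.70, 9.11 and 9.46 in basal WT hearts. Again no arrays overlapped, and F13a1 rose 2.31-fold in KO hearts (adjusted p = 0.00101) and 2.18-fold in WT hearts (adjusted p = 0.00111).

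Cd163 read 8.85, 8.33, 8.89 and 9.0 in TAC KO hearts, against 7.41, 7.57 and 7.48 in basal KO hearts. The TAC WT arrays read 8.0, 7.63, 7.36 and 8.29, against 7.49, 6.54 and 7.29 in basal WT hearts. The KO groups did not overlap, while TAC WT 3 lay below basal WT 1. Cd163 rose 2.43-fold in KO hearts (log2 1.28, SE 0.25, adjusted p = 0.00171) and 1.64-fold in WT hearts (log2 0.71, SE 0.25, adjusted p = 0.0282). Leaving out basal WT 2 ended the WT call (log2 0.43, adjusted p = 0.158), as did leaving out TAC WT 1 (0.0516) or TAC WT 4 (0.0807). Cbr2, a carbonyl reductase read in resident macrophages, rose 1.42-fold in KO hearts (adjusted p = 0.011) and 1.39-fold in WT hearts (adjusted p = 0.0137, lost without basal WT 2 at 0.073).

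Lyve1, which lymphatic endothelium also carries, read 9.84, 8.50, 9.74 and 10.56 in TAC KO hearts, against 9.10, 9.26 and 9.06 in basal KO hearts. After TAC, WT hearts read 9.69, 9.76, 8.39 and 10.02, against 9.21, 9.33 and 9.18 in basal WT hearts. In each TAC group 1 array (TAC KO 2 and TAC WT 3) lay below all basal arrays and the other 3 lay above them, and the second kept probe set of the gene showed the same order, with 7.81 on TAC KO 2 and 7.52 on TAC WT 3. The differences were log2 0.52 in KO hearts (SE 0.41, adjusted p = 0.316) and 0.23 in WT hearts (SE 0.41, adjusted p = 0.663), or 0.58 without TAC WT 3 (adjusted p = 0.191). Of the lymphatic markers, Pdpn rose in both genotypes (log2 1.32 in KO hearts and 2.05 in WT hearts), and Prox1 and Flt4 fell in KO hearts (log2 -0.83 and -0.31). The mean of the 4 measured lymphatic markers, as a difference from basal WT, was lowest of the TAC arrays on TAC KO 2 (log2 0.16) and TAC WT 3 (0.21), and its part in the Lyve1 values was not tested. Folr2 differed by log2 0.47 in KO hearts (SE 0.25, adjusted p = 0.14) and 0.27 in WT hearts (SE 0.25, adjusted p = 0.384), or 0.10 without TAC WT 3. Timd4, a phosphatidylserine receptor of resident macrophages, lay between 4.20 and 5.16 on all 14 arrays.

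**Figure D3:**
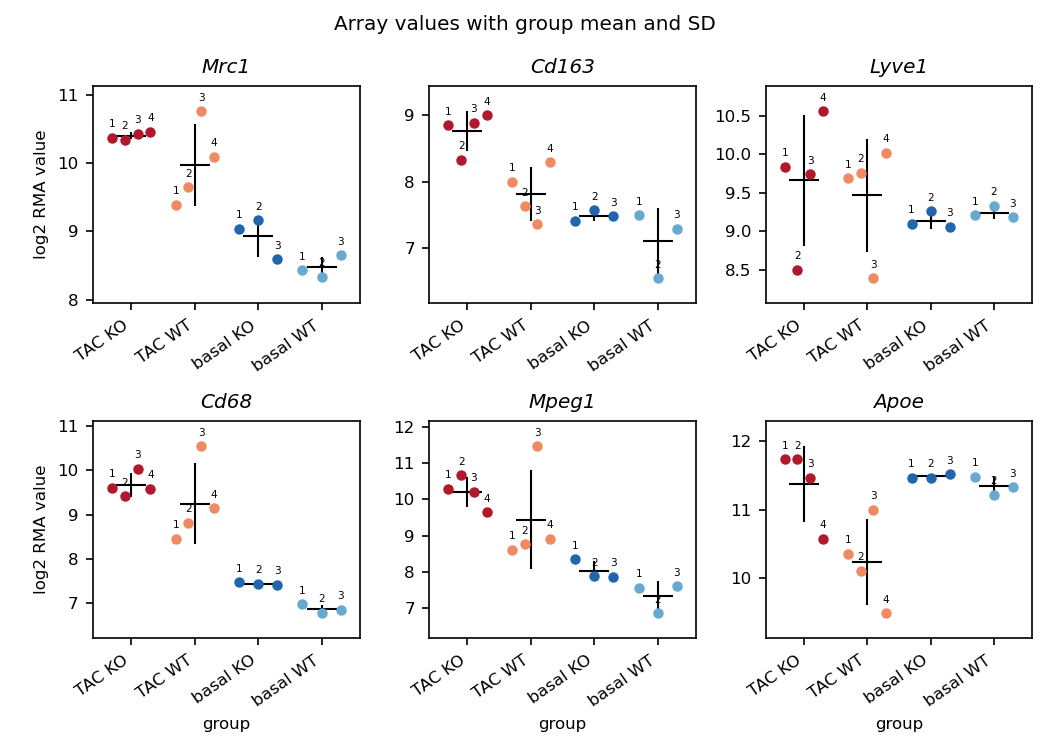
Log2 RMA value of Mrc1, Cd163, Lyve1, Cd68, Mpeg1 and Apoe on each array by group, numbered by replicate, with the group mean and SD as a black cross. TAC WT 3 is the highest TAC WT array for Mrc1, Cd68, Mpeg1 and Apoe, and the lowest for Cd163 and Lyve1.

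Most lineage and adhesion genes rose. Of 8 measured members, 5 rose in KO hearts (Ptprc, Cd68, Itgam, Mpeg1 and Ms4a7) and 6 rose in WT hearts (these and Adgre1). Cd68, a lysosomal glycoprotein of macrophages, read 9.61, 9.41, 10.04 and 9.58 in TAC KO hearts, against 7.47, 7.44 and 7.42 in basal KO hearts. In TAC WT hearts it read 8.46, 8.82, 10.55 and 9.14, against 6.98, 6.79 and 6.85 in basal WT hearts. The TAC and basal arrays stood well apart in both genotypes, with a rise of 4.65-fold in KO hearts (log2 2.22, SE 0.35, adjusted p = 0.000653) and 5.17-fold in WT hearts (log2 2.37, SE 0.35, adjusted p = 0.000299). Without TAC WT 3 the WT difference of Cd68 was log2 1.93.

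Mpeg1, the pore-forming protein perforin-2 of phagosomes, read 10.29, 10.67, 10.21 and 9.64 in TAC KO hearts, against 8.36, 7.88 and 7.87 in basal KO hearts. The TAC WT arrays read 8.61, 8.76, 11.47 and 8.92, against 7.57, 6.87 and 7.61 in basal WT hearts. Its rise was 4.49-fold in KO hearts (adjusted p = 0.00681) and 4.26-fold in WT hearts (adjusted p = 0.00677), and 2.66-fold in WT hearts without TAC WT 3, which lay far above the other TAC WT arrays. Ptprc, the pan-leukocyte phosphatase CD45, rose 4.06-fold in KO hearts (adjusted p = 0.00599) and 5.49-fold in WT hearts (adjusted p = 0.00164, 3.61-fold without TAC WT 3). Ms4a7, a membrane protein of macrophages, rose 4.34-fold in KO hearts (adjusted p = 0.0109) and 4.85-fold in WT hearts (adjusted p = 0.00613, 2.98-fold without TAC WT 3).

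Itgam, the integrin chain CD11b of monocytes, macrophages and neutrophils, read 7.03, 6.99, 7.45 and 7.58 in TAC KO hearts and 5.32, 5.96, 8.39 and 6.89 in TAC WT hearts. It lay between 5.04 and 5.19 in basal KO hearts and between 4.71 and 5.52 in basal WT hearts, all under the cut, and TAC WT 1 lay within the basal WT range. It rose by log2 2.13 in KO hearts (adjusted p = 0.0057) and 1.58 in WT hearts (adjusted p = 0.0212). The WT value was log2 1.0 without TAC WT 3, and leaving out basal WT 2 (adjusted p = 0.0628) or basal WT 3 (0.0754) ended the call. Adgre1, the macrophage receptor F4/80, differed by log2 1.12 in KO hearts (SE 0.44, adjusted p = 0.0538) and rose by 1.18 in WT hearts (SE 0.44, adjusted p = 0.0393). The KO difference passed too without TAC WT 3 (adjusted p = 0.000738) or TAC WT 1 (0.0385). Its WT difference was 0.63 without TAC WT 3, and its WT call was lost without basal WT 1, 2 or 3 (adjusted p from 0.0624 to 0.125). Csf1r, the receptor for the growth factor on which macrophages depend, differed by log2 0.56 in KO hearts (SE 0.32, adjusted p = 0.166) and 0.69 in WT hearts (SE 0.32, adjusted p = 0.0832). The KO difference of Csf1r passed without TAC WT 3 (adjusted p = 0.0258) and its WT difference was then 0.33 (adjusted p = 0.189). Without TAC WT 1 the WT difference of Csf1r passed at 0.85 (adjusted p = 0.0398). Another kept probe set of Csf1r differed by log2 0.38 in KO hearts (adjusted p = 0.355) and 0.58 in WT hearts (adjusted p = 0.146). The remaining kept probe set of Csf1r differed by log2 0.05 in KO hearts (adjusted p = 0.877) and -0.01 in WT hearts (adjusted p = 0.98). These probe sets were tested among 24525 probe sets. Mertk, a receptor for engulfing dying cells, differed by log2 0.43 in KO hearts (adjusted p = 0.144) and 0.23 in WT hearts (adjusted p = 0.412), or 0.04 without TAC WT 3. Itgax, the integrin chain CD11c, exceeded the cut only on TAC KO 2 (6.17) and TAC WT 3 (6.60).

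Fc receptors and their adaptors rose for 5 of 5 members in KO hearts and 4 of 5 in WT hearts. Fcgr1, the high-affinity IgG receptor, read 7.85, 8.17, 7.82 and 8.05 in TAC KO hearts, against 5.10, 5.96 and 6.16 in basal KO hearts. After TAC, WT hearts read 6.57, 7.46, 9.86 and 6.96, against 5.14, 5.60 and 4.88 in basal WT hearts. The groups did not overlap, and Fcgr1 rose by log2 2.23 in KO hearts (SE 0.58, adjusted p = 0.00823) and 2.51 in WT hearts (SE 0.58, adjusted p = 0.00359, log2 1.79 without TAC WT 3). Its second kept probe set was weaker, at log2 0.47 in KO hearts (adjusted p = 0.145) and 0.64 in WT hearts (adjusted p = 0.0507). That second probe set was the brighter one on every basal array, so TAC signal was part of how the first was chosen. Fcgr3, a low-affinity IgG receptor, rose 3.37-fold in KO hearts and 2.64-fold in WT hearts, and Fcer1g, the signalling chain that these receptors share, rose 3.34-fold and 2.57-fold in the same order of genotypes. Tyrobp, the adaptor DAP12, rose by log2 1.36 in KO hearts (adjusted p = 0.0145) and 1.15 in WT hearts (adjusted p = 0.0277). Its WT difference was 0.64 without TAC WT 3, and leaving out basal WT 2 (adjusted p = 0.101) or basal WT 3 (0.0613) ended the call. Trem2, the lipid-sensing receptor that signals through Tyrobp, rose by log2 0.94 in KO hearts (SE 0.33, adjusted p = 0.033), and differed by 0.68 in WT hearts (SE 0.33, adjusted p = 0.0974). The WT difference was 0.27 without TAC WT 3 (adjusted p = 0.184), and it passed at 0.88 without TAC WT 1 (0.032) and at 0.86 without TAC WT 2 (0.0449). The KO call of Trem2 was lost when any basal KO array or TAC KO 2, 3 or 4 was left out (adjusted p from 0.0588 to 0.105).

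Pattern and scavenger receptors rose for 3 of 3 members in KO hearts and for 1 of 3 in WT hearts. Cd14, the co-receptor for bacterial lipopolysaccharide, read 8.84, 9.24, 8.91 and 8.83 in TAC KO hearts, against 8.0, 8.0 and 8.04 in basal KO hearts. In TAC WT hearts it read 8.03, 8.43, 9.59 and 8.77, against 8.40, 9.86 and 8.59 in basal WT hearts. The KO groups stood apart, while the WT groups overlapped and basal WT 2 was the highest of all 14 arrays. Cd14 rose by log2 0.94 in KO hearts (SE 0.35, adjusted p = 0.0425). That call was lost without TAC WT 4 or any 1 of the 7 KO arrays (adjusted p from 0.0515 to 0.0956). The WT difference of Cd14 was log2 -0.24 (SE 0.35, adjusted p = 0.57). It turned to 0.21 without basal WT 2 and was -0.54 without TAC WT 3. The test of KO against WT differences gave log2 1.19 (SE 0.49, adjusted p = 0.598), and 0.73 without basal WT 2. Clec7a, the fungal glucan receptor dectin-1, rose by log2 1.14 in KO hearts (adjusted p = 0.0289, from 0.0739 to 0.0963 without basal KO 1, basal KO 2 or TAC KO 2), and differed by 0.72 in WT hearts (adjusted p = 0.128), or 0.27 without TAC WT 3 (adjusted p = 0.329). Msr1, the class A scavenger receptor, rose by log2 0.95 in KO hearts (adjusted p = 0.0249) and 0.81 in WT hearts (adjusted p = 0.042, log2 0.50 at an adjusted p of 0.0946 without TAC WT 3). Leaving out any basal KO array, TAC KO 3 or TAC KO 4 ended its KO call (adjusted p up to 0.0719). Leaving out any basal array, TAC WT 3, TAC WT 4 or TAC KO 1 ended its WT call (up to 0.147). Another of its probe sets rose by log2 2.24 in KO hearts (adjusted p = 0.0025) and 1.95 in WT hearts (adjusted p = 0.00423). Of the basal arrays it exceeded the cut on basal WT 2 alone (5.82), so a higher TAC value was part of how it was kept. The remaining kept probe set of Msr1 differed by log2 0.63 in KO hearts (adjusted p = 0.143) and 0.70 in WT hearts (adjusted p = 0.1).

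Genes of the lysosome, the phagocyte oxidase and lipid handling rose for 5 of 7 members in KO hearts and 6 of 7 in WT hearts, and the remaining gene, Apoe, fell in WT hearts. Ctss, a cysteine protease of macrophage lysosomes, read 11.79, 12.05, 11.73 and 11.35 in TAC KO hearts, against 9.10, 9.77 and 9.44 in basal KO hearts. The TAC WT arrays read 10.15, 10.69, 12.80 and 10.77, against 9.18, 7.49 and 9.05 in basal WT hearts. No arrays overlapped, and Ctss rose 4.90-fold in KO hearts (adjusted p = 0.00453) and 5.77-fold in WT hearts (adjusted p = 0.00209). Cybb, the catalytic subunit gp91phox of the phagocyte oxidase, rose 3.65-fold in KO hearts and 4.30-fold in WT hearts (2.85-fold without TAC WT 3). Alox5ap, which hands arachidonic acid to the leukotriene pathway, rose 3.57-fold in KO hearts and 2.77-fold in WT hearts. Lyz2, the lysozyme of macrophages and neutrophils, rose by log2 1.10 in KO hearts (adjusted p = 0.0162, 0.0506 without basal KO 1) and 1.02 in WT hearts (adjusted p = 0.0197, 0.0897 without basal WT 2). Without TAC WT 3 the WT difference of Lyz2 was 0.63.

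Aif1, the actin-binding protein Iba1 of macrophages, differed by log2 0.97 in KO hearts (SE 0.47, adjusted p = 0.107, or 0.00496 without TAC WT 3) and rose by 1.34 in WT hearts (SE 0.47, adjusted p = 0.0298). The WT value was 0.77 without TAC WT 3, and leaving out basal WT 1 (adjusted p = 0.0614) or basal WT 2 (0.107) ended the call. Laptm5, a lysosomal membrane protein of blood cells, rose 4.94-fold in KO hearts (adjusted p = 0.00191) and 5.48-fold in WT hearts (adjusted p = 0.00101) on its brightest probe set. Brightness was averaged over all arrays, so TAC signal was part of how that probe set was chosen. Its probe sets disagreed. One that was brighter on every basal array differed by log2 0.33 in KO hearts (adjusted p = 0.39). In WT hearts that one rose by 0.86 (adjusted p = 0.0319). Another differed by 0.13 in KO hearts (adjusted p = 0.649) and -0.18 in WT hearts (adjusted p = 0.495). A dimmer one fell by 0.37 on the log2 scale in KO hearts (adjusted p = 0.0352) and by 0.34 in WT hearts (adjusted p = 0.0453). These further probe sets were tested among 24525 probe sets.

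Apoe, the apolipoprotein of lipid-laden macrophages and other cells, went the other way in WT hearts. It read 11.74, 11.74, 11.47 and 10.57 in TAC KO hearts, against 11.47, 11.47 and 11.52 in basal KO hearts. After TAC, WT hearts read 10.35, 10.10, 11.00 and 9.48, against 11.48, 11.22 and 11.33 in basal WT hearts. All TAC WT arrays lay below all basal WT arrays, whereas the KO groups overlapped. Apoe fell 2.16-fold in WT hearts (log2 -1.11, SE 0.31, adjusted p = 0.0107) and differed by log2 -0.11 in KO hearts (SE 0.31, adjusted p = 0.797). The test of the difference between genotypes in this response gave log2 1.0 (SE 0.44, adjusted p = 0.629), which did not pass.

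Among genes of injured or alternatively activated macrophages, 3 of 4 rose in KO hearts and 2 of 4 in WT hearts. Chil3, a chitinase-like lectin, read 7.88, 6.87, 8.42 and 9.55 in TAC KO hearts, against 3.99, 4.20 and 4.42 in basal KO hearts. In TAC WT hearts it read 7.01, 6.76, 9.08 and 8.52, against 4.06, 4.17 and 3.91 in basal WT hearts. The basal values lie near the floor of the table and the difference, the largest of the list, was log2 3.98 in KO hearts (SE 0.58, adjusted p = 0.000432) and 3.80 in WT hearts (SE 0.58, adjusted p = 0.000361). Lgals3, the lectin galectin-3, read 9.73, 10.21, 10.35 and 10.11 in TAC KO hearts, against 7.50, 7.26 and 6.95 in basal KO hearts. The TAC WT arrays read 8.25, 8.65, 10.65 and 9.46, against 6.83, 7.62 and 6.98 in basal WT hearts. It rose 7.28-fold in KO hearts (adjusted p = 0.000465) and 4.31-fold in WT hearts (adjusted p = 0.00175), with no overlap of arrays.

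Arg1, the arginase of alternatively activated macrophages, had the largest standard error of the list. It read 8.24, 5.39, 7.98 and 9.36 in TAC KO hearts, against 4.27, 4.29 and 4.96 in basal KO hearts. After TAC, WT hearts read 4.48, 4.42, 8.84 and 7.26, against 4.02, 4.61 and 4.05 in basal WT hearts. TAC WT 1 and TAC WT 2 lay within the basal WT range, and the difference was log2 3.24 in KO hearts (SE 1.01, adjusted p = 0.0201) and 2.02 in WT hearts (SE 1.01, adjusted p = 0.106). The KO call was lost without basal KO 1, basal KO 2 or TAC KO 4 (adjusted p from 0.0594 to 0.0606). The WT difference was 1.16 without TAC WT 3 (adjusted p = 0.285), and it passed at 2.61 without TAC WT 1 (0.04) and at 2.63 without TAC WT 2 (0.0448). Gpnmb, a glycoprotein of lipid-handling macrophages, differed by log2 0.87 in KO hearts (adjusted p = 0.161) and 0.35 in WT hearts (adjusted p = 0.566). The WT difference of Gpnmb turned to -0.16 without TAC WT 3 (adjusted p = 0.74), and its KO difference then passed (adjusted p = 0.0457).

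The other genes of monocyte entry and macrophage function, from lists chosen by role, moved in part. Their counts stand beside 22.7% of all genes that rose and 21.8% that fell in KO hearts. In WT hearts these shares were 26.9% and 23.8%. Of 10 measured genes of monocyte recruitment, 7 rose in KO hearts and 6 rose in WT hearts, with Plac8 in both and Cx3cr1 in KO hearts kept only through TAC arrays. Ccl12, a monocyte chemokine, rose by log2 2.48 in KO hearts (adjusted p = 0.000787) and 3.07 in WT hearts (adjusted p = 0.000158). The integrin chain Itgb2, partner of Itgam, rose by log2 1.37 in KO hearts (adjusted p = 0.0117) and 1.22 in WT hearts (adjusted p = 0.0171), and Ccl2 rose by 1.61 and 1.99. Ccr2, the chemokine receptor of monocytes, fell by 0.51 on the log2 scale in WT hearts (adjusted p = 0.0174) and differed by -0.21 in KO hearts (adjusted p = 0.295). Of 10 phagocyte transcription factors, 3 rose and 3 fell in KO hearts, and 2 rose and 2 fell in WT hearts. These counts lay near the shares of all genes. Maf, linked to resident-type macrophages, rose by log2 2.09 in KO hearts and 1.61 in WT hearts, Ikzf1 rose by 1.42 and 1.19, and Cebpb (log2 -0.87 and -0.77) and Runx1 (-0.69 and -0.62) fell in both, with Klf4 (-0.71) in KO hearts alone past the threshold. Spi1, which encodes PU.1, rose by log2 0.72 in KO hearts (adjusted p = 0.0345) and differed by 0.47 in WT hearts (adjusted p = 0.137). TAC WT 3 raised the WT differences of Itgb2 (9.85, against 7.49 to 8.21 on the other TAC WT arrays), Ikzf1 (8.38, against 6.50 to 6.97) and Spi1 (8.03, against 6.43 to 7.05).

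Of 11 further genes linked to resident macrophages, 5 rose in KO hearts (Igf1, Pf4, Vsig4, Maf and Stab1) and 4 rose in WT hearts (these without Pf4), where Ccl24 (log2 -0.81) and Cd209f (-0.42) fell. Beside this and the list counts that follow, 22.7% of all genes rose and 21.8% fell in KO hearts. In WT hearts 26.9% of all genes rose and 23.8% fell. Igf1, a growth factor, rose by log2 1.35 in KO hearts and 0.95 in WT hearts. Ncf1 was the only 1 of 4 measured oxidase partners of Cybb to rise, by log2 0.97 in KO hearts and 0.94 in WT hearts. It read 8.77 on TAC WT 3, against 7.27 to 7.46 on the other TAC WT arrays. Of 4 measured kinases and effectors downstream of Fc receptors, Btk rose in KO hearts (log2 0.93, adjusted p = 0.0421), and Syk (0.54) and Plcg2 (0.66) rose in WT hearts. Of 6 measured inflammatory cytokine genes, Il6, which passed the detection cut only through TAC arrays, rose (log2 2.57 in KO hearts and 2.44 in WT hearts) and Tnf fell (log2 -0.57 and -0.56) in both genotypes.

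Markers of other cells were read beside these genes. Counts of these markers stand beside 22.7% of all genes that rose and 21.8% that fell in KO hearts. In WT hearts these shares were 26.9% and 23.8%. Of 12 neutrophil markers 5 were measured, and S100a9 (log2 1.96) and S100a8 (1.88), which monocytes also carry, rose in KO hearts while in WT hearts none rose and Elane fell (log2 -0.45). The mean of the 5, as a difference from basal WT, was 0.13 to 0.96 in TAC KO hearts and -0.46 to 0.79 in TAC WT hearts, against -0.28 to -0.07 in basal KO hearts, and TAC WT 3 was the highest TAC WT array. Mmp8, Ltf, Camp, Mpo and Cxcr2, which mark neutrophils, stayed under the cut. Only 3 of 13 lymphocyte markers were measured, and Cd3e, Cd4 and Cd8a fell in WT hearts (log2 -0.28, -0.32 and -0.55). Of 4 measured dendritic cell markers Zbtb46 fell in KO hearts (log2 -0.39), and Flt3 (-0.52) and Siglech (-0.41) fell in WT hearts. The mast cell protease Tpsb2 fell in both genotypes (log2 -0.58 in KO hearts and -0.65 in WT hearts), as did the red cell gene Alas2 (-1.87 and -1.17). Tpsb2 and Siglech were kept only through basal arrays. Cd8a too was kept through them, since of the TAC arrays only TAC KO 1 (5.83) and TAC KO 3 (5.79) exceeded the cut. Fibroblast markers rose for 6 of 8 in each genotype, and their mean was 1.64 to 1.82 in TAC KO hearts and 0.72 to 1.54 in TAC WT hearts, against 0.36 to 0.61 in basal KO hearts and -0.32 to 0.20 in basal WT hearts. TAC WT 3 had the highest mean of the TAC WT arrays. It was the highest of them for Col1a1, Col1a2 and Col3a1, but for none of the other fibroblast markers. Dcn fell in WT hearts (log2 -0.57). Of 8 endothelial markers none rose, 3 fell in KO hearts (Tie1, Egfl7 and Vwf) and 4 fell in WT hearts (these and Pecam1). Of 8 cardiac muscle markers only Actc1 passed, in WT hearts (log2 0.22). No gene of these lists passed between KO and WT hearts, with or without overload. The part of these cells in the member values was not tested.

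Without overload, no member passed between KO and WT hearts. None of the 33 was called in basal hearts, and limma called 0% of all genes higher and 0% lower there. At an unadjusted p under 0.05 there were 2 members, F13a1 and Cd14, beside 5.77% of all genes. The KO minus WT difference lay above 0 for 28 of 33 members and for 6535 of all 12260 genes. Its median was log2 0.26 over members, which are not independent, against 0.01 over all genes. In 10 members all basal KO arrays lay above all basal WT arrays (Cbr2, F13a1, Ptprc, Adgre1, Csf1r, Cd68, Mpeg1, Ms4a7, Lyz2 and Laptm5) and in Cd14 all lay below, where 7.46% and 6.13% of all genes did so. F13a1 differed by log2 0.63 (SE 0.22, 95% interval 0.15 to 1.11, adjusted p = 0.801), Cd68 by 0.57 (95% interval -0.24 to 1.38) and Cd14 by -0.94 (95% interval -1.74 to -0.13, adjusted p = 0.821), or -0.48 without basal WT 2.

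After overload, no member passed between KO and WT hearts when all arrays were used. Limma called 0.00816% of all genes higher (1 gene, the elastic fibre gene Fbln5, at log2 0.96 and an adjusted p of 0.0163, named after its value was seen) and 0% lower. The difference lay above 0 for 32 of 33 members, Aif1 being the exception (log2 -0.23), and for 5638 of all 12260 genes. Its median over members was log2 0.46, against -0.02 over all genes, and the members are not independent. The resident-type markers had a median of 0.40 and the others 0.48. In Cd163 alone did all 4 TAC KO arrays lie above all 4 TAC WT arrays, and no member had them all below, where 1.69% and 2.30% of all genes did so. Cd163 differed by log2 0.95 (SE 0.23, 95% interval 0.46 to 1.44, adjusted p = 0.299), Apoe by 1.15 (SE 0.29, 95% interval 0.52 to 1.77, adjusted p = 0.299), F13a1 by 0.71 (SE 0.19, adjusted p = 0.309) and Cbr2 by 0.36 (SE 0.13, adjusted p = 0.498). These were the 4 members with an unadjusted p under 0.05, which 8.14% of all genes reached.

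Differences of most members outside the resident type depended on the array TAC WT 3. Without it Cd163, Apoe, F13a1 and Cbr2 differed by log2 0.79, 1.40, 0.78 and 0.29. As a mean difference from basal WT, the 27 other members read 1.97, 1.98, 2.06 and 1.82 in TAC KO hearts, against 0.67, 1.0, 2.92 and 1.24 in TAC WT hearts. TAC WT 3 thus lay above every KO array and the other WT arrays below them. The 6 resident-type members read 1.28, 0.79, 1.39 and 1.42 in TAC KO hearts, against 0.61, 0.66, 0.68 and 0.92 in TAC WT hearts, with TAC WT 3 among its group. Per gene, TAC WT 3 exceeded the mean of the other 3 TAC WT arrays by a median of log2 1.86 over the other members, from 0.77 for Mertk to 3.45 for Arg1, and was the highest array for all 27. For resident-type members its difference from that mean ranged from -1.43 for Lyve1 to 1.05 for Mrc1, and it was the highest array for Mrc1 and Folr2 and the lowest for Cd163, Lyve1 and Cbr2.

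**Figure D4:**
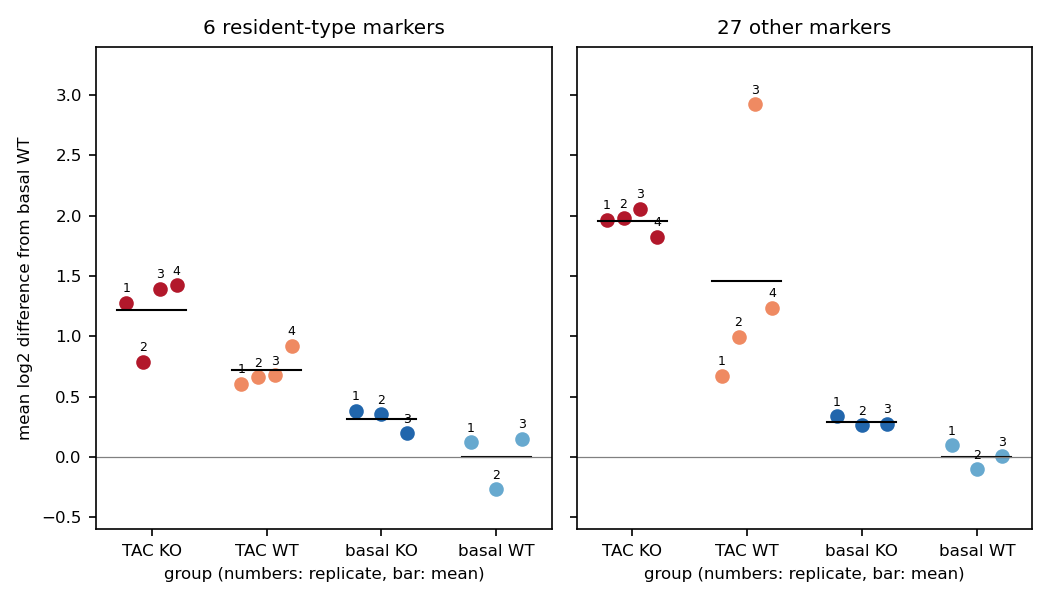
Mean log2 difference from the basal WT arrays over the 6 measured resident-type members (left) and the 27 other measured members (right), 1 point per array with its replicate number and the group mean as a bar. TAC WT 3 reads 2.92 on the right, above every other array, and 0.68 on the left, among the TAC WT arrays.

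Without TAC WT 3, 12 of 33 members were higher in TAC KO than in TAC WT hearts and none was lower, where limma called 0.718% of all genes higher and 0.155% lower. The array was singled out because it was the highest TAC WT array for most members, so leaving it out had to raise their KO minus WT differences and take the farthest WT value out of their spread. These counts are therefore a description, and the shares of all genes, for which no array was singled out, are no like reference. The 12 members were Adgre1, Cd68, Mpeg1, Fcgr3, Fcer1g, Tyrobp, Trem2, Clec7a, Lyz2, Alox5ap, Apoe and Lgals3, with at least 1 from each of the other role groups. Mpeg1 then differed by log2 1.44 (SE 0.23, adjusted p = 0.0278), Apoe by 1.40 (SE 0.26, adjusted p = 0.0287) and Cd68 by 0.85 (SE 0.16, adjusted p = 0.0321). None of the 6 resident-type members passed: Mrc1 differed by 0.69 (SE 0.17, adjusted p = 0.0737), F13a1 by 0.78 (SE 0.21, adjusted p = 0.0986), Cd163 by 0.79 (SE 0.22, adjusted p = 0.109) and Lyve1 by -0.16 (SE 0.33, adjusted p = 0.845). Whether resident-type and other members differ in this was not tested.

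A fit that weights arrays by their agreement with their group gave TAC WT 3 a weight of 0.187, the lowest of the 14, and TAC KO 3 the highest, 4.73. TAC KO 3 held 63.1% of the weight of the TAC KO arrays and TAC WT 2, at 3.52, held 71.7% of that of the TAC WT arrays, so this fit rests largely on 1 array against 1. With those weights 27 of 33 members were higher in TAC KO hearts and none was lower, where 10.2% of all genes were higher and 13.2% lower. Leaving out any other single array gave 0 members. By list mean, TAC WT 3 was also the highest TAC WT array for the recruitment, neutrophil and fibroblast lists. The same held for transcription factors, oxidase partners, kinases, cytokines, dendritic cell markers and the further resident-linked genes. TAC WT 3 was the lowest TAC WT array for the erythroid gene Alas2, at 6.92.

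**Figure D5:**
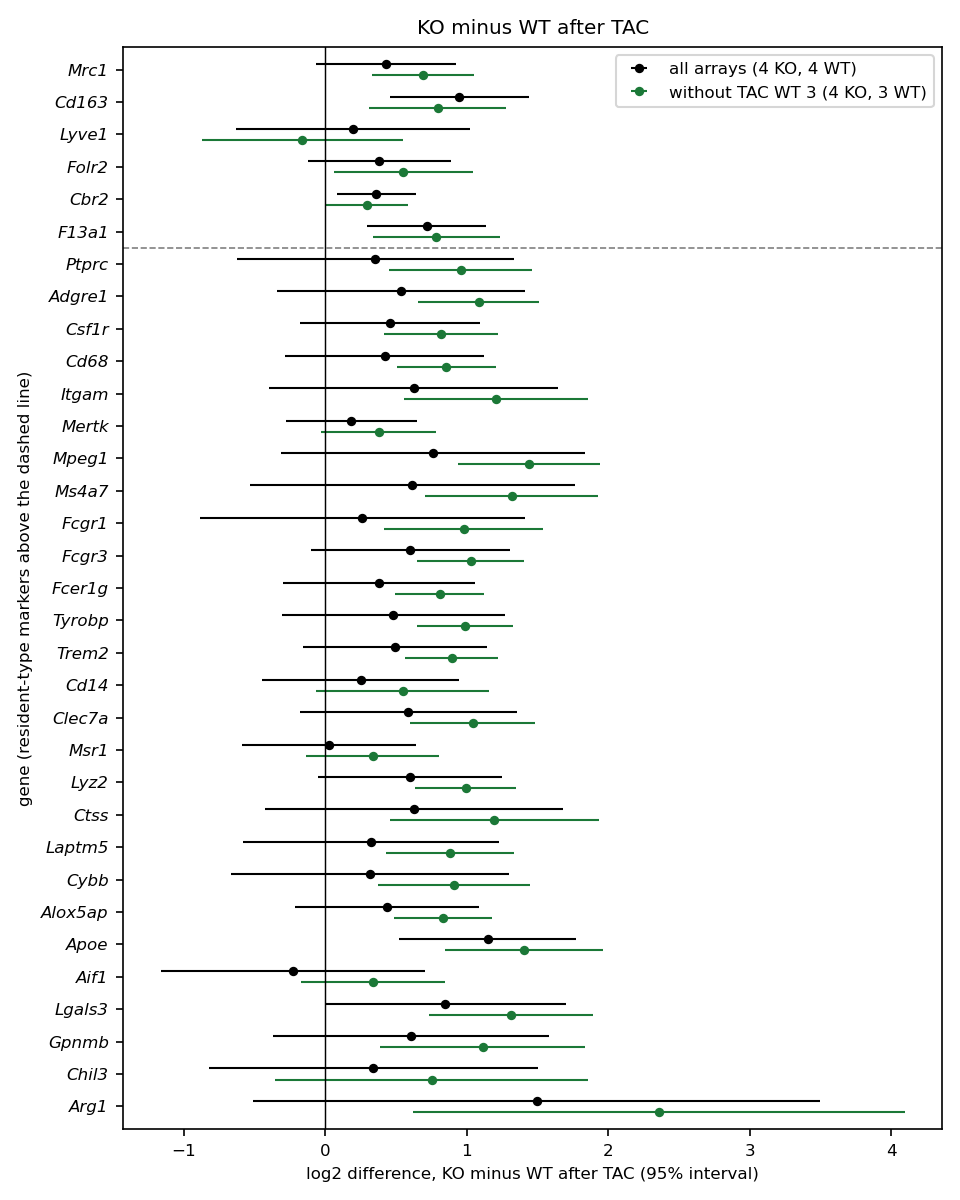
Log2 difference of KO minus WT after TAC for each member with its 95% interval from limma, with all arrays (4 KO, 4 WT) and without TAC WT 3 (4 KO, 3 WT). Without that array most points of the non-resident markers lie farther right with narrower intervals, while those of Cd163, Lyve1 and Cbr2 lie farther left.

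No member passed the test of whether the genotype difference was itself another after overload. For the difference of the KO effects, TAC minus basal, limma called 0% of all genes higher and 0% lower and none of 33 members, with 2 members, Apoe and Cd14, among the 7.77% of all genes at an unadjusted p under 0.05. The values were log2 1.19 for Cd14 (95% interval 0.12 to 2.25, adjusted p = 0.598) and 1.0 for Apoe (95% interval 0.05 to 1.96, adjusted p = 0.629), and the median over the list was 0.18, against -0.03 over all genes. For Cd68 it was -0.15 (95% interval -1.23 to 0.92) and for Mrc1 -0.03 (95% interval -0.79 to 0.73). Without TAC WT 3 no member was called either, and the median over the list was 0.47.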

How the data were processed

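Left ventricular RNA of 14 samples was extracted with Trizol and hybridised to Affymetrix Mouse430_2 arrays, per the labels. Each deposited number is a log2 signal for 1 probe set, made by the authors with RMA, per the submitters' processing notes. No source used here gives the RMA version or says if the arrays were normalized as 1 set. Groups came from the sample titles.

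Of 45101 probe sets, 34958 had 1 gene symbol, 932 several and 9211 none in the platform annotation (RefSeq GRCm38.p6 for names). A probe set was kept if its value exceeded 5.75, the median of the table, on at least 3 arrays. The brightest kept probe set on average stood for each gene, which gave 12260 genes after 64 control probe sets were left out. The 4 group means were fitted to all 14 arrays in R 4.3.3 with limma 3.58.1 (lmFit and eBayes, 10 residual and 3.43 prior degrees of freedom), and a gene was called at a Benjamini-Hochberg adjusted p under 0.05. Every adjusted p in the text comes from limma, SE is its standard error, and log2 differences are the first named group minus the other. The script was tested on simulated data. Alternatives covered the filter, probe set choice, scaling, array weights, the replicate block and leaving out each array. All 35 members were to be named, with up to 3 genes of smallest p from each other list. Members and lists were chosen with earlier results of these data known. The number of arrays limits the precision.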

Additional observations from a re-analysis of the deposited data

Results flagged for a closer look

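In 7 of 66 groups of 4 arrays tested, the gap between the highest array and the next, as a share of the group's range, exceeded the 95% critical value of Dixon's test. Chance flags about 1 in 20 groups, and the genes are not independent. In 6 of them the array was TAC WT 3: Mpeg1 (11.47 against 8.92 on the next array, share 0.892), Clec7a (8.51 against 6.80, share 0.881), Gpnmb (8.21 against 6.33, share 0.858), Ms4a7 (10.80 against 8.21, share 0.849), Adgre1 (10.46 against 8.40, share 0.844) and Lyz2 (13.04 against 11.64, share 0.843). The remaining one was Laptm5 in TAC KO hearts, where TAC KO 2 read 10.30 against 9.83 on the next array (share 0.855). No resident-type member was among them.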

How the results depend on the processing

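Counts of members called kept within 1.5 times under most of the planned settings. The exceptions follow. Without probe sets marked _x_at or _s_at, 2 members were lower in WT hearts after TAC and 1 in KO hearts, because Laptm5 reversed to log2 -0.34 in WT hearts (adjusted p = 0.0431) and -0.37 in KO hearts (adjusted p = 0.0332) when its brightest probe set was dropped. Leaving out 1 array at a time gave 15 to 25 members higher in WT hearts (21.1% to 29.4% of all genes), 19 to 29 in KO hearts (17.5% to 25.7%) and 0 to 12 for KO against WT after TAC, where the 12 came without TAC WT 3 (0.718%). With array weights 27 members were higher in KO than WT hearts after TAC (10.2% of all genes) and 1, Apoe, for the difference of KO effects (0.424%). On all genes, scaling moved the split of calls after TAC in WT hearts (3298 higher and 2916 lower as deposited, 2567 and 3685 after quantile normalization, 3784 and 2243 after median centring), with 18 and 23 members higher under these 2 scalings. The median difference of all genes was then log2 -0.10 and 0.10, and that of members 1.16 and 1.42. A fit to only the arrays compared gave 16 members higher in WT hearts (21.2% of all genes) and 28 in KO hearts (25.9%). With a replicate block, 24 members were higher in WT hearts (25.2% of all genes), 27 in KO hearts (20.6%) and 0 for KO against WT after TAC. The sample titles do not say whether equal numbers pair the samples. Deviations of same-numbered arrays correlated at 0.59, -0.06, -0.07 and 0.49 between TAC KO and TAC WT, and at -0.03, 0.07 and -0.01 between basal KO and basal WT. So few values cannot decide it. Over all members and settings together, calls of TAC against basal were lost 29 times and gained 17 times in KO hearts, and lost 36 times and gained 6 times in WT hearts, with Laptm5 the only reversal in each. Apart from Laptm5, the cause of these shifts was not tested.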

Other observations

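TAC KO 2 and TAC WT 3 shared low or high values of several genes, which were chosen after their values were seen. Lyve1 read 8.50 on TAC KO 2 and 8.39 on TAC WT 3, against 9.69 to 10.56 on the other 6 TAC arrays. Alas2, an enzyme of haem synthesis in red cell precursors, read 6.75 on TAC KO 2 and 6.92 on TAC WT 3, against 7.86 to 8.96 on the others. Prox1, a transcription factor of lymphatic endothelium and heart muscle, read 5.22 and 5.0 on these arrays, against 5.69 to 6.47 on the others. On the same arrays Itgax reached 6.17 and 6.60, and Cd209a, a marker of some dendritic cells, 6.93 and 6.30, against at most 5.49 and 5.91 on the other TAC arrays.

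The other genes linked to resident macrophages did not move as one on TAC WT 3. Vsig4 read 8.63, 7.31, 8.33 and 8.63 in TAC KO hearts, against 7.51, 7.50, 6.76 and 7.90 in TAC WT hearts, so that TAC WT 3 was the lowest TAC array, as it was for Cd163. Stab1 read 9.17, 9.08, 9.12 and 8.86 in TAC KO hearts, against 8.33, 8.50, 9.60 and 8.52 in TAC WT hearts, with TAC WT 3 the highest, as it was for Mrc1. Slc40a1, the iron exporter, read 7.03 to 8.60 in TAC KO hearts and reached 9.43 on TAC WT 3, against 7.74 to 8.40 on the other TAC WT arrays.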
